A study of Mus musculus with 82 samples.

Results

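Nr1h4 and Nr1i3 are the genes of 2 nuclear receptors of the hepatocyte, and each was measured by 1 probe among the 21915 features of a mouse liver microarray series. The probes were taken by the symbol that the platform annotation gives them. The series holds 82 two-colour arrays. The mice were BXD recombinant inbred strains, whose parents are C57BL/6J (called B6) and DBA/2J (called D2). On 72 arrays total RNA from the liver of 17 BXD strains, 32 arrays of males and 40 of females, was hybridised against a reference labelled E17.5mix, made from B6 embryos at day 17.5. On 2 arrays B6 male liver was set against the same mix, on 6 arrays B6 liver met D2 liver of the same labelled sex, and on 2 more arrays the liver RNAs of both parents were called enriched, with no word on what was enriched. No strain carries an engineered allele or a treatment per the labels, and the series description speaks of unfasted males of 10 to 20 weeks and of 18 BXD strains, whereas the array labels hold 17 and both sexes.

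Nr1h4 encodes the farnesoid X receptor (FXR), which bile acids activate, and Nr1i3 encodes the constitutive androstane receptor (CAR), which responds to drugs and other foreign chemicals. Both bind DNA as heterodimers with a retinoid X receptor, at paired copies of a half-site of the type AGGTCA. FXR is known to raise the bile salt export pump Abcb11 and to lower bile acid synthesis, in which Cyp8b1 makes the sterol 12-alpha-hydroxylase of cholic acid synthesis and Cyp7b1 the oxysterol 7-alpha-hydroxylase of the alternative pathway. CAR is known for raising drug-metabolising enzymes of the Cyp2b family, of which Cyp2b9 is a female-biased member in mouse liver. These 4 genes, each with 1 probe, are the partners with which the receptors are compared.

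In the RefSeq annotation of GRCm38.p6, Nr1h4 spans chr10:89454234-89533645 and Nr1i3 chr1:171213934-171218845. The 250 bases upstream of an annotated start are printed here for both receptors, and for Abcb11 because the inverted repeat through which FXR is known to act is a textbook feature of that promoter. Capitals mark AGGTCA on either strand, and in Abcb11 the whole inverted repeat of AGGNCA with 1 base between the half-sites.
Nr1h4 (chr10:89506659-89506908, minus strand): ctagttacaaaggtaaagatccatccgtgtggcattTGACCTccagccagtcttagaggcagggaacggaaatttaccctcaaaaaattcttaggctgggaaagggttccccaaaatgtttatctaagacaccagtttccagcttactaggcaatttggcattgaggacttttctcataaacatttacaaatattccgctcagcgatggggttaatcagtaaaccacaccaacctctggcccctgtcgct
Nr1i3 (chr1:171213720-171213969, plus strand): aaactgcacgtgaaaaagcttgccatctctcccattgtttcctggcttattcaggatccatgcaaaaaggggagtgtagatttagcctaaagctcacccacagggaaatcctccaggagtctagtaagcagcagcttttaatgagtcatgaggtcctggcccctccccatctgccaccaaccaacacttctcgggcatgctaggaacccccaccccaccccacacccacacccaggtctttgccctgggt
Abcb11 (chr2:69342617-69342866, minus strand): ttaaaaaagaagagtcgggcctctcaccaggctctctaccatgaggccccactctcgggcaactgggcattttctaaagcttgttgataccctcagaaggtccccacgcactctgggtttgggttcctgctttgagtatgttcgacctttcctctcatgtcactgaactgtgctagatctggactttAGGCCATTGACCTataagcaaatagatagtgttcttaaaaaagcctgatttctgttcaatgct
The RefSeq promoter table held such a window for 5 of the 6 genes, all but Cyp7b1. The Nr1h4 window lies at an internal start, 26987 bases inside the gene's outer edge, and holds 1 half-site, 214 to 209 bases before that start. The Nr1i3 window had no match to the half-site, and neither had the Cyp8b1 window. In Abcb11 the inverted repeat lies 63 to 51 bases before the start, and its second arm is the half-site itself. Cyp2b9 held 1 half-site, 138 to 133 bases before its start. Of 32841 mouse windows of this length, 14.03% held the half-site on either strand and 0.0853% the inverted repeat, so the half-site alone is common while the repeat is rare. A match of letters describes the window and does not show binding.

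The values are log2 ratios, read as liver over embryo mix or as B6 over D2. A forward array has the BXD or B6 liver in channel 1 and a swapped array has it in channel 2. The direction follows from the data: read as channel 2 over channel 1, the median of 8 hepatocyte genes exceeded that of 12 embryonic and non-liver genes on 74 of 74 arrays (lowest hepatocyte median 3.35, highest embryonic median -3.25). Because these genes set the direction, they give no separate check that the samples were liver. One BXD11 female array is titled as a dye swap while its channels are those of a forward array. It correlated at 0.835 or more with its group when read by its channels, and it was kept. The 3 direct arrays labelled female go against their labels. On them Cyp2b9, higher in females of all 17 BXD strains, was -2.78, -2.92 and -2.52 (log2, B6 over D2), while Cyp7b1, lower in females of all 17, was 2.67, 2.47 and 2.59. The Y-linked genes Eif2s3y and Uty averaged 0.64 and 0.97 there, against 0.13 and 0.12 on the arrays labelled male. Each B6 and D2 result is therefore given with and without those arrays.

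Nr1h4 was higher in adult liver than in the embryo mix. On the 72 BXD arrays its log2 ratio ran from 0.99 to 2.86 with a median of 1.96, so no array put the liver below the mix. Over the 13 strains with both orientations in both sexes the mean was 1.90 ± 0.17 (SD, n = 13), a 3.73-fold difference (SE 0.046, limma adjusted p = 2.20e-15). Nr1i3 was also higher in liver, with arrays from 0.57 to 2.94 and a median of 1.82. Its strain mean was 1.81 ± 0.25 (SD, n = 13), or 3.52-fold (SE 0.064, limma adjusted p = 2.84e-13). Of all features, 4.69% were called higher in liver and 9.17% lower, where a call needs an adjusted p under 0.05 and an absolute log2 ratio of at least 1. Ranked by absolute log2 ratio, Nr1h4 was number 930 and Nr1i3 number 1024 of 21915. The spread of the mix itself is outside these tests, because it is 1 reference, and in whole tissue fewer cells of a type and less RNA per cell cannot be told apart.

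Most of the FXR and CAR target genes that could be measured were also higher in liver. Of all features, as given above, 4.69% were called higher and 9.17% lower. The 8 hepatocyte genes that set the direction were all called higher, with a median of 3.83. A higher level in liver is thus not particular to the receptor targets. Of 26 listed FXR targets 9 were measured under a name, of which 7 were called higher and none lower, with a median over the 9 of 1.38 against 0.071 over all features. Baat, which joins bile acids to taurine, stood at 4.45, the bile acyl-CoA synthetase Slc27a5 at 3.57, Abcb11 at 3.15 and the phospholipid exporter Abcb4 at 2.77. Of 38 listed CAR targets 15 were measured, of which 12 were called higher and 1 lower, with a median over the 15 of 2.13. The glucuronosyltransferase Ugt2b5 stood at 5.02, the steroid hydroxylase Cyp2a4 at 4.79, the retinal dehydrogenase Aldh1a1 at 4.23 and Cyp2c29 at 3.63. The 1 called lower was Gadd45b, a stress-response gene, at -1.23. All 5 measured genes of bile acid synthesis and conjugation were called higher, as were 4 of 5 bile transporters. These lists overlap those of the targets. Baat, Slc27a5, Cyp8b1, Abcb11 and Abcb4 were also counted as FXR targets, and the exporter Abcc2 as a CAR target. Among the transporters the bile salt uptake carrier Slc10a1 passed narrowly at 1.0004, and the exporter Abcg2, at 0.65, did not reach the size required.

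Proteins that work with the receptors were called in both directions between liver and mix. Over all features the shares were 4.69% higher and 9.17% lower. Of 22 listed partners and coregulators 12 were measured under a name, of which 2 were called higher and 4 lower. The epidermal growth factor receptor Egfr, whose signalling holds CAR in the cytoplasm, was higher at 2.05, and the arginine methyltransferase Carm1 was higher at 1.06. The methyltransferase Prmt1 (-2.28), the corepressor Nrip1 (-1.78) and Dnajc7 (-1.68), a co-chaperone that retains CAR, were among the lower ones. Of 13 other nuclear receptors measured, 2 were called higher and none lower: Nr1h3, the liver X receptor alpha, at 2.33, and the fatty acid receptor Ppara at 1.38. Of 10 liver transcription factors, Foxa3 at 2.23 and Cebpb at 1.46 were called higher.

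Nr1h4 was higher in females than in males. Male values over the 17 strains ran from 1.39 to 2.15 with a median of 1.73, and female values from 1.80 to 2.41 with a median of 2.12. The ranges overlapped, but within strains the female was higher in 16 of 17. BXD16 was the exception, at -0.05 (female minus male), and BXD18 had the widest difference, 0.85. In the 13 strains with both orientations, the male and female arrays were deposited in different stretches, as given below. The mean difference was 0.34 ± 0.25 (SD, n = 17 strains), or 1.26-fold (SE 0.060, limma adjusted p = 3.74e-04). Sex differences were common on these arrays: 16.5% of features were called higher in females and 17.2% lower.

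Nr1i3 showed no sex difference that passed the test. Males ran from 0.83 to 2.38 and females from 1.30 to 2.48, so nearly the whole ranges overlapped. The female was higher in 9 strains and the male in 8, from 1.22 in BXD2 to -0.66 in BXD32. The mean difference was 0.13 ± 0.59 (SD, n = 17 strains; SE 0.134, limma adjusted p = 0.503). The spread of that difference between strains was wider than for Nr1h4, and no test of the difference between the receptors was made.

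**Figure D1:**
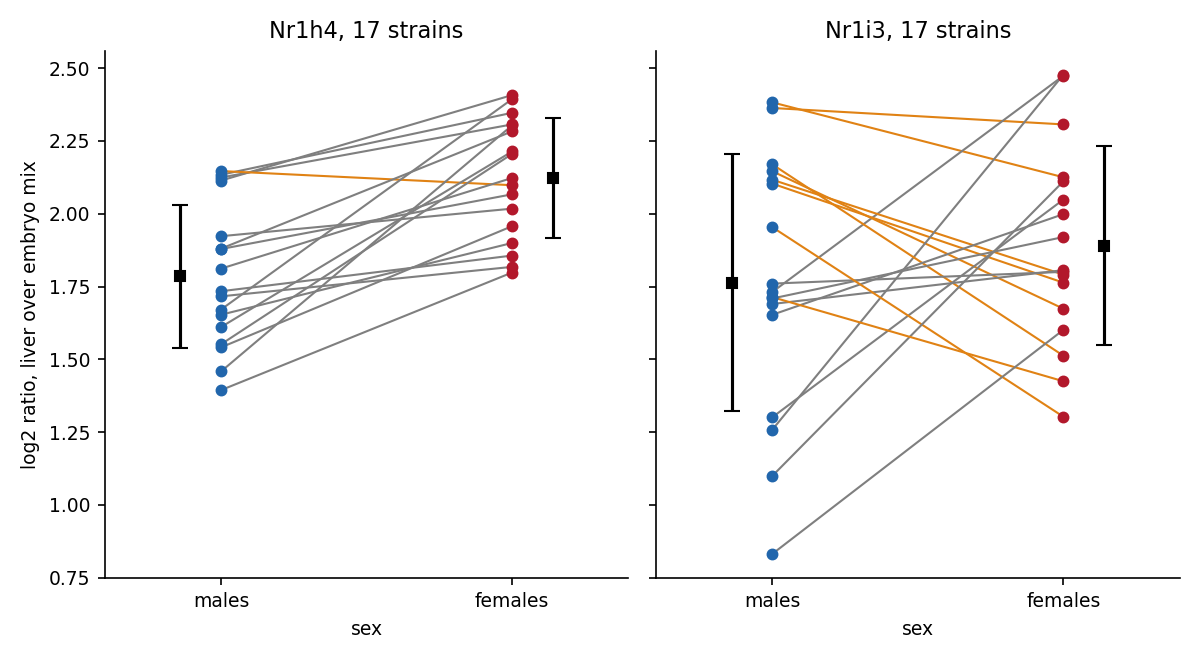
Each point is the log2 ratio of liver over embryo mix for 1 strain in males or females, lines join the sexes of a strain, orange lines mark strains in which the male was higher, and squares with bars are the mean and SD over 17 strains. For Nr1h4, 16 of 17 lines rise from male to female, while for Nr1i3 the female was higher in 9 and the male in 8.

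A run is here a stretch of arrays deposited one after the other, up to the next forward array that follows a swapped one, and some runs held 1 sex only. In the runs with both sexes the Nr1h4 difference (female minus male) was 0.25, 0.57, 0.39, 0.19 and 0.40 in the 5 runs, above 0 in each. In the runs that gave 0.25, 0.57 and 0.39, males and females came from different strains, so sex and strain cannot be told apart there. The runs that gave 0.19 and 0.40 hold the 4 strains measured on forward arrays alone, the only strains with both sexes in 1 run. In the 13 other strains male and female never shared a run, so sex and run cannot be told apart within them. A run of females only held BXD18, BXD5, BXD19, BXD12, BXD28 and BXD2. Their differences were 0.85, 0.72, 0.65, 0.60, 0.29 and 0.10. A limma fit on 40 values with the 9 runs as a term gave 0.30 for Nr1h4 (adjusted p = 0.0134). For Nr1i3 the same 5 runs gave 0.15, 0.35, -0.0091, -0.39 and 1.01, and the fit with the run term gave -0.14 (adjusted p = 0.716). In the 4 strains measured on forward arrays alone, the difference was 0.25 for Nr1h4 (limma adjusted p = 0.373) and -0.04 for Nr1i3.

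The partners and target genes differed between the sexes in both directions. Cyp7b1 was lower in females by the log2 difference -2.53 (limma adjusted p = 2.36e-08) and Cyp8b1 by -0.53 (adjusted p = 0.00293), while Cyp2b9 was higher by 2.19 (adjusted p = 3.47e-10). Abcb11 differed by -0.04 (adjusted p = 0.741). Of the 9 FXR targets 4 were called higher in females and 1 lower, against 16.5% and 17.2% of all features. The higher ones were the pyruvate dehydrogenase kinase Pdk4 (0.80), the proteoglycan Sdc1 (0.34), Baat (0.30) and Slc27a5 (0.17), and Cyp8b1 was the lower one. Of the 15 CAR targets 6 were called higher in females and none lower, against the same shares. Among them were Cyp2b9, Cyp2b13 (2.15), Gadd45b (1.17) and Cyp2a4 (1.01). The median of the CAR targets was 0.06, against 0.02 over all features, so the called ones stood out from a list whose middle hardly moved.

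Coregulators and other receptors were called in both directions, in numbers near the shares over all features (16.5% higher in females and 17.2% lower). Of the 12 partners and coregulators 2 were called higher in females, Prmt1 (0.27) and Dnajc7 (0.26), and 3 lower, among them Carm1 (-0.82) and Egfr (-0.55). Of the 13 other nuclear receptors the adipogenic Pparg (0.33) and Esrra (0.31) were called higher, and Esrrg (-0.46), Nr4a2 (-0.41), the vitamin D receptor Vdr (-0.30) and Nr2c1 (-0.18) lower. Of 10 liver transcription factors none was called higher and 2 were lower in females, Onecut1 (-0.36) and Stat5a (-0.32). Markers of other cells moved with sex as well: 2 of 4 macrophage markers were called higher in females (C1qa 0.35, C1qb 0.37), while Marco (-0.10) and Cd5l (-0.18) did not pass. Also called higher were 2 of 5 stellate or fibroblast and 2 of 5 lymphocyte markers. Of 4 endothelial markers 1 was higher and 2 lower. The mean log2 ratio of the macrophage markers ran from -0.10 to 0.73 in males and from 0.03 to 0.85 in females, that of the stellate markers from -1.22 to -0.66 and from -1.09 to -0.59, and that of the lymphocyte markers from 0.14 to 0.46 and from 0.22 to 0.50. Of 8 hepatocyte genes 2 were called higher in females. The part of these cells in the Nr1h4 difference was not tested.

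Over the BXD strains neither receptor differed by the test. Nr1h4 strain means over the 13 strains ran from 1.60 in BXD32 to 2.26 in BXD28, with a median of 1.88. Their SD was 0.17 against a residual SD of 0.19 (moderated F = 1.75, limma adjusted p = 0.5001). Between the ends lay, from high to low, BXD16 (2.12), BXD5 (2.03), BXD31 (1.97), BXD15 (1.97), BXD12 (1.91), BXD18 (1.88), BXD19 (1.88), BXD11 (1.80), BXD21 (1.78), BXD2 (1.77) and BXD6 (1.75). No neighbours in that order were further apart than the residual SD. Nr1i3 strain means ran from 1.22 in BXD21 to 2.25 in BXD15, with a median of 1.83. Their SD was 0.25 against a residual SD of 0.40 (moderated F = 0.97, limma adjusted p = 0.736). After BXD15 came BXD28 (2.10), BXD16 (1.95), BXD19 (1.93), BXD2 (1.87), BXD32 (1.84), BXD31 (1.83), BXD12 (1.81), BXD11 (1.78), BXD6 (1.75), BXD18 (1.67) and BXD5 (1.57), again with neighbours closer than the residual SD. Of all features 1.2% were called different between strains. The residual comes from the male and female values of a strain, so the test weighs strains against how far the sexes of a strain differ after the mean sex difference.

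The other 4 strains had forward arrays only, and are kept apart because orientation moved both genes. Their means were 2.24 (BXD9), 2.22 (BXD14), 2.08 (BXD27) and 1.97 (BXD8) for Nr1h4, and 2.33 (BXD14), 1.91 (BXD9), 1.63 (BXD8) and 1.61 (BXD27) for Nr1i3. In 31 pairs of a forward and a swapped array, Nr1h4 was higher on the forward array in 30, by 0.43 ± 0.29 (SD, n = 31 pairs). Nr1i3 was higher on the forward array in 8 of 31, at -0.42 ± 0.90 (forward minus swapped), from -2.30 for BXD16 females (0.64 forward, 2.94 swapped) to 1.41 for BXD6 females (2.51 forward, 1.10 swapped). The SD of this gap was 0.30 in the median feature, and 2.46% of features had a wider one than Nr1i3. Whether the arrays of a pair share 1 RNA extract is not stated beyond their common label.

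**Figure D2:**
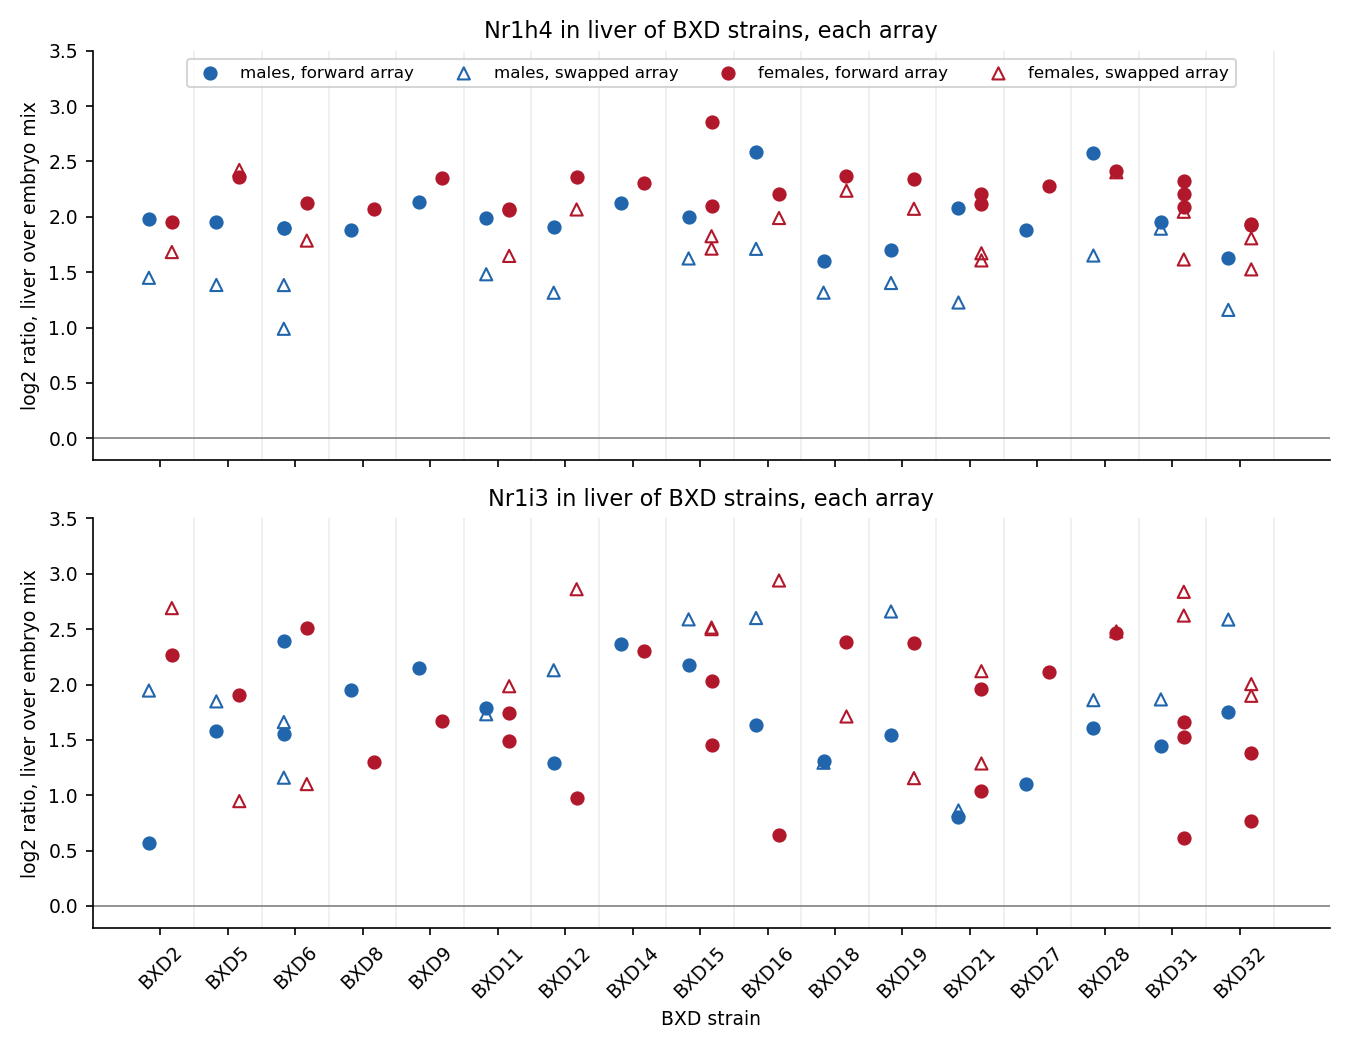
Each symbol is 1 BXD array, with the log2 ratio of liver over embryo mix on the vertical axis and the strain on the horizontal axis. Filled circles are forward arrays and open triangles swapped ones, blue for males and red for females. Nr1h4 was higher on the forward array in 30 of 31 pairs, while Nr1i3 ran from 0.57 to 2.94 with forward and swapped arrays of a strain far apart in both directions.

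For Nr1h4 the strain values from forward and swapped arrays correlated, and for Nr1i3 no such correlation was detected. Over 13 strains, those of Nr1h4 gave r = 0.707 (permutation p = 0.00608, adjusted over 12 relations 0.0243) and rho = 0.604 (permutation p = 0.0329, adjusted 0.0986). Without the 2 strains farthest from the median r was 0.489. For Nr1i3 the same comparison gave r = -0.393 (permutation p = 0.182, adjusted 0.312) and rho = -0.407 (permutation p = 0.1703, adjusted 0.292). Males and females correlated at r = 0.242 for Nr1h4 (permutation p = 0.425, adjusted 0.464; rho = 0.1703, p = 0.577) and r = -0.111 for Nr1i3 (permutation p = 0.719, adjusted 0.719; rho = -0.220, p = 0.472). For Abcb11 the orientations gave r = 0.851 (permutation p = 2.60e-04, adjusted 0.00312) and rho = 0.863 (permutation p = 2.20e-04, adjusted 0.00264), the highest of the 6 genes, and for Cyp8b1 they gave r = 0.297 (permutation p = 0.325, adjusted 0.464) and rho = 0.181 (permutation p = 0.555, adjusted 0.577).

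The uneven Nr1i3 values were nevertheless shared by a second probe. Probe 2267577, to which the tables used here give no gene, was the 1 feature whose slope on Nr1i3 over the 13 strains passed the test (slope 1.02, SE 0.115, limma adjusted p = 0.00964), which is 0.00456% of features. Over strain means it correlated with Nr1i3 at 0.944, in males at 0.958 and in females at 0.945. On the 72 BXD arrays, after the mean of each sex and orientation was taken off, the array-to-array deviations of both probes correlated at 0.959. The next feature stood at 0.8004, and the median absolute correlation over features was 0.152. The forward minus swapped gaps of both probes correlated at 0.963 over 31 pairs, and their values differed by 0.10 on average over the BXD arrays. These correlations describe arrays that both probes share and carry no p. The spread of Nr1i3 from array to array was thus present at a second spot of the same arrays. Which transcript that spot measures is not known here.

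**Figure D3:**
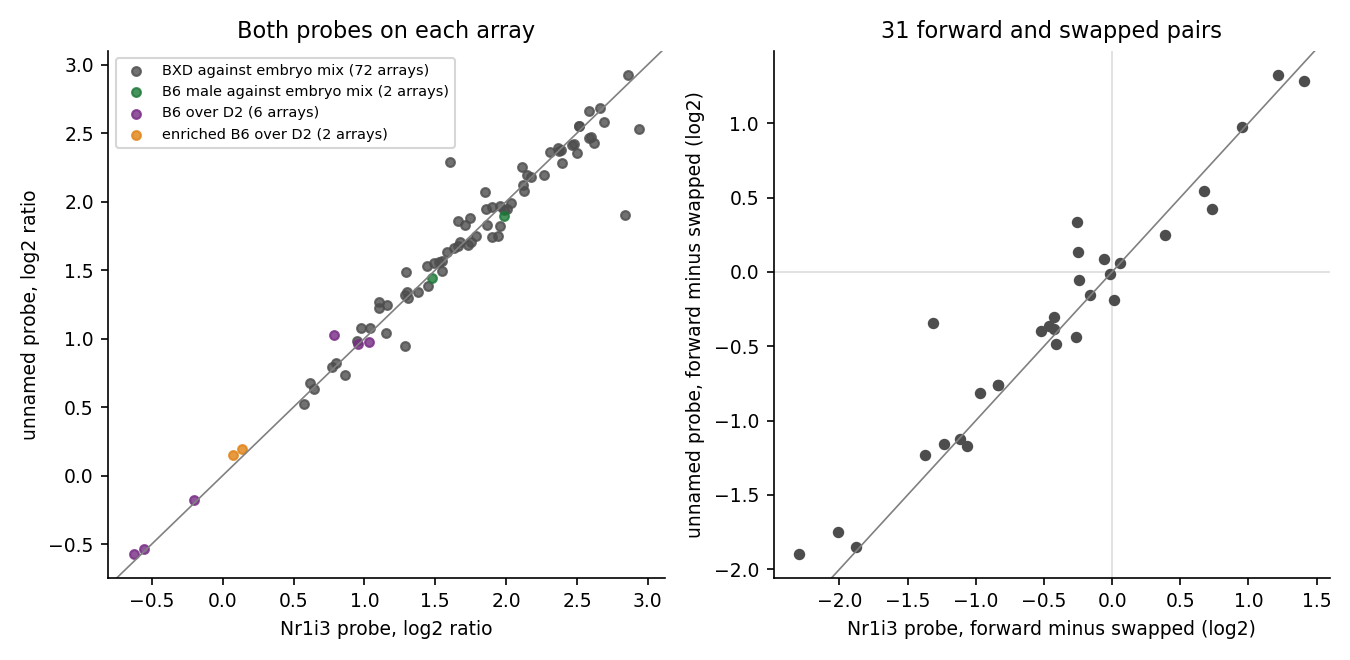
The left panel sets the log2 ratio of unnamed probe 2267577 against that of the Nr1i3 probe on each of the 82 arrays, and the right panel sets their forward minus swapped gaps against each other in 31 pairs, with grey lines of equality. Most points lie near the line, at a correlation of 0.963 over the pairs.

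For Nr1h4 no feature followed the arrays as closely. The highest correlations of array deviations among named genes were those of Cpb2 (0.688), a plasma carboxypeptidase, Lect2 (0.682), a secreted hepatocyte protein, and Mrpl39 (0.665). For Nr1i3 the named genes nearest to it were Bche (0.733), the plasma cholinesterase, and F12 (0.669), a clotting factor. These 5 were chosen after their values were seen.

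B6 male liver, measured on 1 forward and 1 swapped array against the mix, lay within the BXD range for both receptors. Nr1h4 was 2.22 and 1.91 there, and their mean of 2.07 was above 11 and below 2 of the male values of the 13 strains with both orientations. Nr1i3 was 1.48 and 1.99, and their mean of 1.73 was above 8 and below 5 of them.

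Set directly against each other, B6 and D2 livers showed no difference in Nr1h4 that passed the test. On the arrays labelled male its log2 ratio of B6 over D2 was 0.51 on the forward array and 0.21 and 0.02 on the swapped ones. On those labelled female it was 0.14 on the forward array and -0.17 and 0.00 on the swapped ones, so the groups overlapped. The mean over 4 values, 1 per labelled sex and replicate number, was 0.09 (SE 0.096, limma adjusted p = 0.630). From the arrays labelled male alone it was 0.19 and from those labelled female alone -0.0061. By the same test 0.178% of features were called. Across all features, the forward and swapped arrays of replicate 1 agreed poorly once turned, at r = -0.019 (labelled male) and 0.133 (labelled female). Pairs against the embryo mix gave 0.556 to 0.895. The direction was checked by marker genes on the arrays with the mix only, and the same reading was carried over to B6 over D2.

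Nr1i3 went in opposite directions on the arrays labelled male and female. It was 0.95, 1.03 and 0.78 on the 3 labelled male, higher in B6, and -0.20, -0.63 and -0.56 on the 3 labelled female. The mean over 4 values was 0.20 (SE 0.302, limma adjusted p = 0.738), which joins opposite values. From the arrays labelled male alone it was 0.89 (limma adjusted p = 0.389) and from those labelled female alone -0.49 (adjusted p = 0.420). The difference between labelled sexes was -1.37 (female minus male, SE 0.15), and its p in limma was 7.65e-04 before and 0.405 after adjustment over all features (4 values, each labelled sex with its own 3 arrays). By that test 0% of features were called after adjustment, with 1673 at an unadjusted p under 0.05. The unnamed probe 2267577 again went with Nr1i3, within 0.24 of it on each of the 6 arrays. For Nr1h4 the same difference was -0.20 (limma adjusted p = 0.717). On the arrays labelled female the Y-linked genes and the male-biased Cyp7b1 were higher in B6 and the female-biased Cyp2b9 lower, as given above. Across features the mean of these arrays correlated at -0.302 with the BXD female minus male difference, against 0.029 for the arrays labelled male. Nr1i3 itself differed between BXD females and males by 0.13 (limma adjusted p = 0.503). The part of sex in its values on these arrays was not tested. On the enriched arrays Nr1i3 was 0.13 (labelled male) and 0.08 (labelled female) and Nr1h4 0.08 and 0.02.

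**Figure D4:**
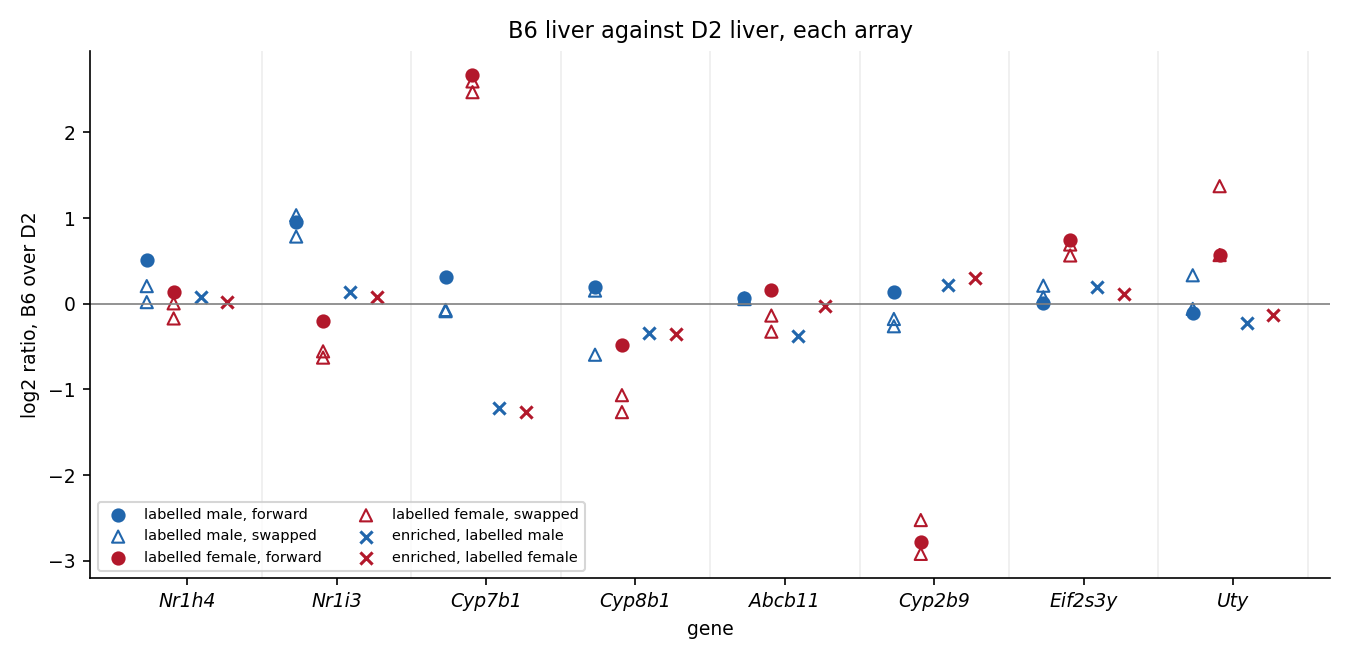
Each symbol is 1 array, with the log2 ratio of B6 over D2 on the vertical axis and the gene on the horizontal axis. Circles are forward, triangles swapped and crosses enriched arrays, and blue and red give the labelled sex. Nr1i3 lies between 0.78 and 1.03 on the 3 direct arrays labelled male and between -0.63 and -0.20 on those labelled female, where Cyp7b1, Cyp2b9, Eif2s3y and Uty also stand apart.

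Strains with higher Nr1h4 ranked lower in Cyp8b1 over the 13 strain means, a relation that lost its call in several alternatives. Over 13 strain means the correlation was r = -0.694 (permutation p = 0.00858, adjusted over 9 relations 0.0772) and rho = -0.797 (permutation p = 0.00184, adjusted 0.0166), so the rank correlation passed the adjustment and the linear one did not. At the ends, BXD28 with the highest Nr1h4 (2.26) had Cyp8b1 at 0.85, and BXD32 with the lowest (1.60) had it at 1.82. Without these 2 strains, which lie farthest from the median, r was -0.647 (permutation p = 0.0313) and rho -0.764 (permutation p = 0.00828, adjusted 0.0745). Within males r was -0.560 (permutation p = 0.0460) and within females -0.576 (permutation p = 0.0421), neither past the adjustment (0.284 and 0.189). Both genes are read from the same arrays, and taking them from arrays of opposite orientation gave r = -0.406 and -0.579, and rho = -0.363 (adjusted p = 0.604) and -0.467 (adjusted p = 0.334). With all 17 strains, 4 of them on forward arrays only, r was -0.423 and rho -0.397 (adjusted p = 0.485). The adjusted p of rho also rose above 0.05 without BXD2 (0.0519), BXD11 (0.0634) or BXD19 (0.0625).

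Nr1i3 and Cyp8b1 correlated at r = -0.621 (permutation p = 0.0208, adjusted 0.0935) and rho = -0.484 (permutation p = 0.0968, adjusted 0.290). This relation rested on 2 strains: without BXD21, lowest in Nr1i3, and BXD15, highest, r was -0.118. The within-sex values were -0.389 in males and -0.181 in females. Over 17 strains r was -0.564 (permutation p = 0.0179, adjusted 0.161). With Nr1i3 from swapped and Cyp8b1 from forward arrays it was -0.672 (rho = -0.786, adjusted p = 0.0202), and the other way round -0.468. Nr1i3 and Cyp7b1 correlated at r = -0.485 (permutation p = 0.0903, adjusted 0.271) and rho = -0.599 (permutation p = 0.0329, adjusted 0.148), and r was -0.464 without these strains. It was closer to 0 within males (-0.255) and within females (-0.253), over 17 strains (-0.165), and with Nr1i3 from forward and Cyp7b1 from swapped arrays (-0.173), while the other way round it was -0.604.

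Nr1h4 and Abcb11 showed no correlation in the strain means, and correlations of opposite sign within the sexes. Over strain means r was -0.076 (permutation p = 0.804, adjusted 0.804) and rho -0.088 (permutation p = 0.778). Within males r was 0.525 (permutation p = 0.0631, adjusted 0.284; rho = 0.538, p = 0.0608) and within females -0.678 (permutation p = 0.0128, adjusted 0.116; rho = -0.626, p = 0.0258). The difference of -1.20 between these correlations (female minus male) was tested over the 8192 ways to exchange the sexes within strains. Each gene was first centred on its mean in each sex, so the p is approximate. The 2-sided p of this exchange test was 0.00439, adjusted over 9 relations to 0.0396. That test was chosen after the values were seen. Male and female of these strains never shared a run, so it cannot tell sex from run. The run of females only held BXD28, BXD5, BXD18, BXD12, BXD19 and BXD2. Their female Nr1h4 values were 2.41, 2.39, 2.30, 2.21, 2.21 and 1.82. Abcb11 stood at 2.60, 2.90, 2.74, 2.81, 2.99 and 3.23 in the same order. The part of the run in these correlations was not tested. With each strain left out in turn, r ran from 0.404 to 0.690 in males and from -0.807 to -0.585 in females. With Nr1h4 from forward and Abcb11 from swapped arrays it was 0.171 and -0.327, and the other way round 0.576 and -0.784.

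The remaining relations were weaker. Nr1h4 correlated with Cyp7b1 at r = -0.333 (permutation p = 0.2696, adjusted 0.444; rho = -0.258, p = 0.393) and with Cyp2b9 at 0.145 (permutation p = 0.638, adjusted 0.804; rho = 0.379, p = 0.203). Nr1i3 correlated with Abcb11 at 0.113 (permutation p = 0.721, adjusted 0.804; rho = 0.055, p = 0.863) and with Cyp2b9 at 0.318 (permutation p = 0.296, adjusted 0.444; rho = 0.165, p = 0.590). The receptors correlated with each other at 0.390 (permutation p = 0.182, adjusted 0.410; rho = 0.335, p = 0.261). Without the 2 farthest strains of the receptor these r were -0.257, 0.229, 0.0074, -0.089 and 0.349 in turn, and that of Nr1h4 with Abcb11 was -0.254.

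**Figure D5:**
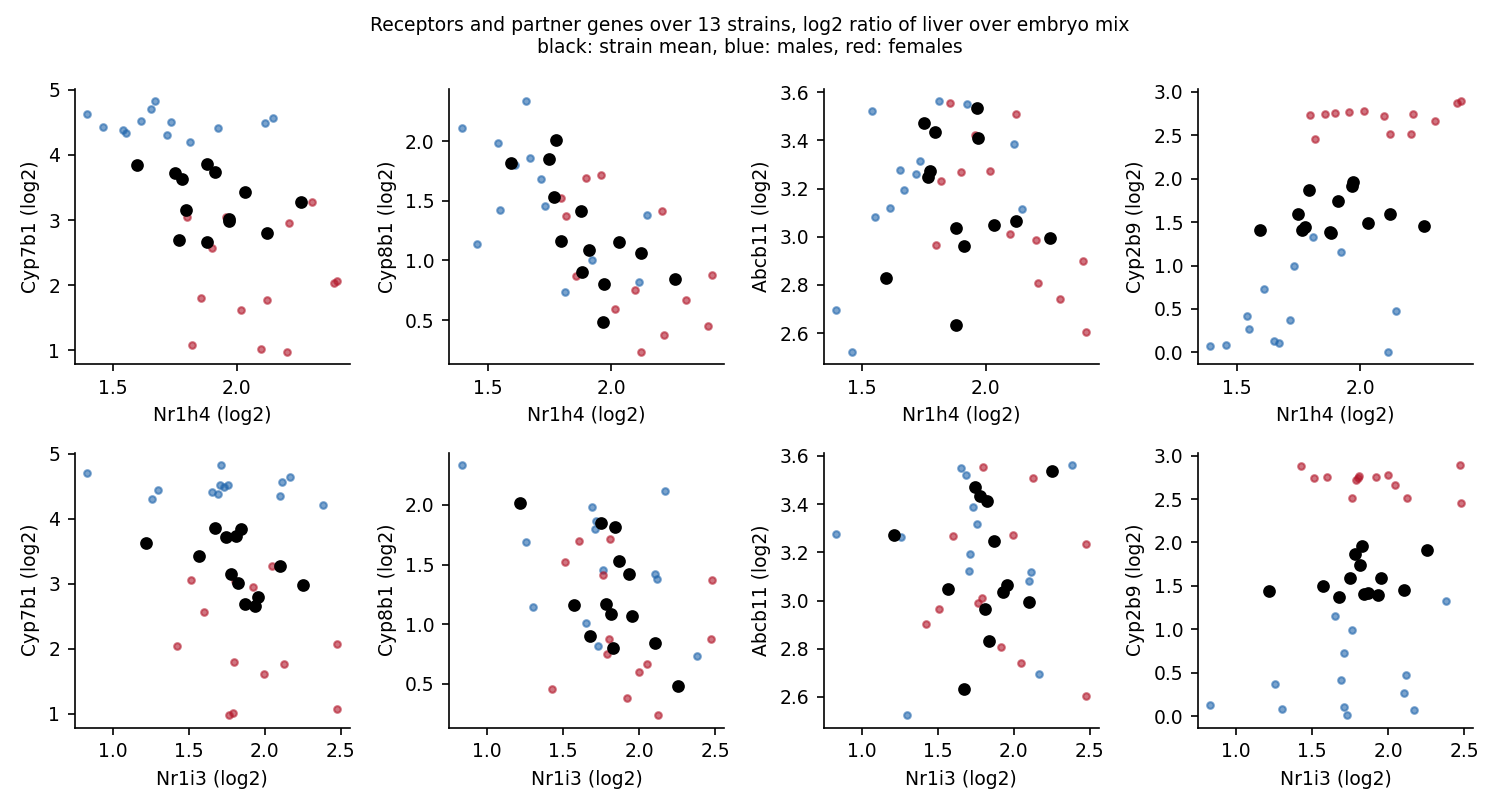
Each panel sets the log2 ratio of a receptor (horizontal) against that of a partner gene (vertical), both as liver over embryo mix, with black points for the 13 strain means and blue and red points for their male and female values. Nr1h4 and Cyp8b1 gave r = -0.694 (adjusted p = 0.0772), and Nr1h4 and Abcb11 gave 0.525 in males (adjusted p = 0.284) and -0.678 in females (adjusted p = 0.116).

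Over all features 0% had a slope on Nr1h4 that passed limma's adjusted test over the 13 strains, with 4354 at an unadjusted p under 0.05. Among the named genes most like Nr1h4 over strain means were Strbp (0.943), a spermatid RNA-binding protein, Rpgr (0.901), Tbx19 (0.889) and Ina (0.860). Among the most opposite were the stress kinase Map3k5 (-0.922) and the phosphodiesterase Pde10a (-0.899). For Nr1i3 the most alike were Pex14 (0.875), of peroxisomal import, Siva1 (0.856), Bnc1 (0.854), Hgh1 (0.841) and Jpt1 (0.835), and the most opposite Fgf2 (-0.839), Chst4 (-0.828) and Rnf32 (-0.826). The median absolute correlation over features was 0.316 for Nr1h4 and 0.328 for Nr1i3. These correlations run over 13 strain means whose genes share arrays, and none of the named ones passed the adjusted test. Each was weaker within males and within females. Strbp stood at 0.586 and 0.343 there, Map3k5 at -0.830 and -0.583, Hgh1 at 0.414 and 0.063, and Fgf2 at -0.498 and -0.076.

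Among coregulators, Ppargc1a, a coactivator of FXR, differed between strains (SD 0.71, limma adjusted p = 0.00473) and correlated with Nr1h4 at -0.829 over strain means, -0.599 in males and -0.713 in females. Its slope on Nr1h4 had a limma adjusted p of 0.132. Med1, a Mediator subunit that binds nuclear receptors, also differed between strains (SD 0.33, adjusted p = 0.0465) and correlated with Nr1h4 at -0.375. Of the 9 FXR targets none was called different between strains, where 1.2% of all features were, so the count says little about so few genes. Their median correlation with Nr1h4 was -0.076. Of the 15 CAR targets, against the same 1.2%, Cyp2c55 (SD 0.64, limma adjusted p = 0.0459) and Cyp2c29 (SD 0.48, adjusted p = 0.0494) differed between strains, and they correlated with Nr1i3 at -0.020 and 0.0035. The median correlation of the CAR targets with Nr1i3 was 0.034.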

How the data were processed

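Each array gave 1 value per probe, which the authors deposited as a log ratio without a stated base. The deposited values were read as log10 ratios, since 94 of them sit exactly at 2 on either side of 0, and were converted to log2, so every fold rests on that reading. Scanner, normalization, signal intensity and background are not stated in the sources used here, so no floor of detection could be set, and the number of arrays limits the precision. Values were read as channel 2 over channel 1, so forward arrays were multiplied by -1. Of 21936 probes, 3290 had 1 symbol from the platform annotation, 4 several and 170 a name by accession through RefSeq (GRCm38.p6), and 18476 had none. Probes of 1 symbol were averaged.

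Arrays were averaged within orientation, then across orientations, per strain and sex. Tests used limma 3.58.1 in R 4.3.3 with p-values adjusted by Benjamini and Hochberg over the 21915 features and called at 0.05: strain means against 0, females against males with strain as a block, a moderated F over strains with sex as a term, and B6 against D2 over 4 values with or without a sex term. Correlations used 100000 permutations, 2-sided, with numpy 2.4.6. The liver, sex, strain and B6 against D2 fits were also run on simulated data with independent noise. These simulations held no effects shared by arrays or runs, and the correlations and slopes were not simulated. The labels do not say whether replicates are separate mice, so p-values measure the spread between these samples. Members and gene lists were chosen with earlier results of these data known. Named genes are the receptors, their partners, up to 4 members of largest change per list, coregulators and receptors named for their role, and the 5 most and 3 least correlated genes, of which some are not reported here. The alternatives changed centring, scaling, quantile normalization, orientation, sex, strain set, replicates and deposit run.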

Additional observations from a re-analysis of the deposited data

Results flagged for a closer look

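The log2 ratio of Nr1i3 in B6 over D2 liver differed between the arrays labelled female and male by -1.37 (SE 0.15). The test of this difference had a limma adjusted p of 0.405. The arrays labelled female are those on which sex-biased and Y-linked genes go against the labels. Over the BXD strains, Nr1i3 itself differed between females and males by 0.13 (limma adjusted p = 0.503). The part of the labels in the Nr1i3 gap was not tested.

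The correlation of Nr1h4 with Abcb11 over 13 strains differed between females and males by -1.20. The exchange of sexes within strains gave an adjusted p of 0.0396 over 9 relations. Male and female of these strains never shared a deposit run, so sex and run cannot be told apart in that test. The relation was chosen for attention after its values were seen. The correlation kept its sign in each sex under quantile normalization (0.469 in males, -0.503 in females) and with array medians set to 0 (0.497 and -0.673).

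No array of either receptor stood apart from its group in the 5 groups of 4 or 5 arrays examined.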

How the results depend on the processing

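Liver over embryo mix and the Nr1h4 sex difference kept their direction under each alternative run, the first with an adjusted p under 0.05 throughout and a log2 ratio of 1.69 to 2.11 for Nr1h4 and 1.62 to 2.01 for Nr1i3. The Nr1h4 sex difference ran from 0.24 to 0.49 and lost its call, at 0.25, in the 4 strains with forward arrays only. The Nr1i3 sex difference turned to -0.042 there and to -0.14 with the deposit run as a term. Strain differences of either receptor passed in no alternative. B6 over D2 from arrays labelled female turned to -0.0061 for Nr1h4 and -0.49 for Nr1i3. With values left out in turn it ran from 0.0023 to 0.13 and from -0.062 to 0.45, the last sign change coming without a value labelled male.

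The correlation of Nr1h4 with Cyp8b1 passed the adjustment as r under quantile normalization alone, at -0.745, while as rho it passed there (adjusted p = 0.0428) and lost its call within each sex, over 17 strains, with opposite orientations, without the 2 farthest strains, and without BXD2, BXD11 or BXD19. That of Nr1h4 with Cyp7b1 turned to 0.034 in females, with Abcb11 to 0.525 in males, and with Cyp2b9 to -0.143 over 17 strains and to -0.067 with the receptor from swapped and the partner from forward arrays. That of Nr1i3 with Abcb11 turned to -0.048 over 17 strains and to -0.095 in females, and with Cyp2b9 to -0.328 in females, -0.015 with the receptor from forward and the partner from swapped arrays, and -0.089 without the 2 farthest strains. Without each strain in turn, Nr1h4 with Abcb11 ran from -0.327 to 0.037 and Nr1i3 with Abcb11 from -0.146 to 0.303. The cause of these changes was not tested.

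Counts of features called moved more. For strains, 262 became 1957 with forward arrays of 17 strains, 101 with swapped arrays and 139 to 278 with strains left out in turn. For sex, 7381 became 4695 with the run term and 0 in the 4 strains. For B6 against D2, 39 became 24 under quantile normalization, 25 with replicate 1 only, 274 with a dye term, 510 with enriched arrays, 0 to 29 with values left out and 0 with either labelled sex alone. With the replicate number as a block, 9 features were called, at 0.09 for Nr1h4 and 0.20 for Nr1i3. Labelled sexes shared the number and its orientations: replicate 1 had a forward and a swapped array, and replicate 2 a swapped array only. The replicate 1 minus 2 deviations of the labelled sexes correlated at 0.325 across features.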

Other observations

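Some list members stood far from their list's median in their correlation with a receptor over the 13 strain means, and they are named after their values were seen. Cyp2c39, a retinoic acid hydroxylase listed among the CAR targets, correlated with Nr1h4 at -0.837, at -0.785 in males and -0.592 in females, while its correlation with Nr1i3 was -0.545. Baat, the bile acid conjugating enzyme, correlated with Nr1h4 at 0.705, at 0.592 in males and 0.755 in females, and with Nr1i3 at 0.120. The methyltransferase Carm1 correlated with Nr1h4 at -0.664 over strain means, at -0.714 in males and 0.057 in females. The gluconeogenic Pck1 correlated with Nr1h4 at -0.750, at -0.176 in males and -0.634 in females. The limma slopes of these 4 genes on Nr1h4 had adjusted p from 0.132 to 0.143, so none passed.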
